A study of Mus musculus with 24 samples.

Results

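GT1-7 is an immortalised line of mouse hypothalamic neurons that makes gonadotropin-releasing hormone, the peptide that sets reproduction in motion and is encoded by Gnrh1. The baseline transcriptome of this line was measured by 2 experiments of the series, and the measurements described here are those 6 libraries of 24 (8 groups of 3). The wt total libraries held whole-cell RNA of unmodified GT1-7 cells from an experiment on cell fractions. The GFP input libraries held the 5% of lysate set aside before a GFP pull-down, from GT1-7 cells given 6 µg of a plasmid for green fluorescent protein for 24 h. They were chosen by their labels alone and matched row by row on the gene identifier over 57010 rows. Total RNA of cells labelled Mkrn3ox and inputs of cells given GFP-Mkrn3, again 3 and 3 libraries from the same experiments, served as a second pair that shares no library with the first. Experiment, transfection, depth and file date all change together between wt total and GFP input and cannot be told apart. Separate cultures are not stated for the 3 libraries within a group, so p-values measure the spread between these libraries, which may be technical.

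GnRH neurons arise outside the brain, migrate into the hypothalamus and are specified by homeodomain factors such as Otx2, Six6, Dlx5 and Meis1, several of which bind the Gnrh1 promoter. A mature neuron would in addition carry neurofilaments, synaptic vesicle proteins and granins. CEL-seq2, the library protocol used, primes on the poly(A) tail and reads the 3′ end of transcripts, so RNAs without a long tail (7SK, ribosomal RNA, histone mRNA) are normally a small part of the reads.

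The strand setting of the counting is not given for either experiment, and this bears on every value below. CEL-seq2 reads keep the strand of the transcript. A table counted on the opposite strand would give a row the reads from the other strand of its locus, and one counted without strand would add both. In wt total, rows of the strand that holds few mitochondrial genes took nearly all mitochondrial mRNA and tRNA counts, and rows that overlap a gene on the opposite strand followed that gene's level in the inputs more closely than their own; the values are given below. Which setting was used for each table was not tested, so a wt total value is the count of a row and may not be the level of the named gene's own mRNA.

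The wt total libraries held 639961, 577589 and 759271 counts and the GFP inputs 6947556, 8500401 and 9022961. Detected gene rows numbered 10251 to 11284 in wt total and 15566 to 17525 in the inputs. With every library thinned to 577589 counts the means were 10538 ± 412 and 12598 ± 89.5 (SD, n = 3 each), a difference of 2060 rows with no overlap between groups (exact permutation test, two-sided, p = 0.1, the smallest that 3 against 3 allows). Levels are given as CPM, a gene's counts per 1000000 counts of its library, whose total is first multiplied by the library's TMM factor from edgeR. These factors, which correct for a few rows that fill a library, were 0.52 to 0.64 for wt total and 1.69 to 1.74 for the inputs. Because the factors lie so far apart, the median of all 11768 tested genes was 0.69 higher in the inputs on the log2 scale with TMM and 2.23 higher with the plain library size. A direction is therefore named below only where both scalings give it, or with the statement that it flips. Over the tested genes, Pearson's r of log2 CPM was 0.82 to 0.84 between wt total libraries, 0.99 between input libraries and 0.15 to 0.24 between a wt total and an input library. Those correlations run across genes, which are not independent replicates.

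The genes abundant in both sets made a short list. Actin (Actb), the 16S mitochondrial ribosomal RNA (mt-Rnr2), the elongation factor Eef1a1, the tubulin Tubb5, non-muscle myosin Myh9, the integrin Itgb1 and the chaperone Canx led it. They were followed by mt-Nd6, Cdh11, Hyou1, Zbtb20, Ywhae, Hsp90ab1 and Spcs3, all among the 15 rows with the highest level in the lower of the groups. Myh9 was the closest match on the TMM scale. With the plain library size the median of all tested genes was 2.23 higher in the inputs, and these levels would not match. Its CPM was 758, 901 and 1190 in wt total and 1088, 850 and 912 in the inputs, so the groups overlapped, and the means were 950 ± 220 and 950 ± 123. Canx, a lectin chaperone of the endoplasmic reticulum, had 867 ± 170 CPM in wt total and 1060 ± 72.3 in the inputs. Cdh11, a mesenchymal cadherin, had 790 ± 45.5 and 958 ± 21.7, and mt-Rnr2 had 1357 ± 496 and 1549 ± 204. None of these passed edgeR's quasi-likelihood test with TMM scaling (Benjamini-Hochberg adjusted p = 0.99, 0.22, 0.18 and 0.53). Itgb1, Tubb5 and Spcs3, a signal peptidase subunit, did not pass it either, at 1186 ± 205, 1568 ± 272 and 963 ± 293 CPM in wt total and 917 ± 41.5, 1161 ± 25.0 and 670 ± 14.1 in the inputs.

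The remaining abundant genes differed, and for some the direction depended on the scaling. Actb had 21826, 22019 and 23910 CPM in wt total and 1922, 2305 and 2254 in the inputs, 10.5-fold lower (log2 difference −3.39, SE 0.16, adjusted p = 1.7e-09 by edgeR's quasi-likelihood test). Every wt total library lay above every input, and in 71.0% of all tested genes the groups did not overlap. Ywhae, a 14-3-3 protein, was 3.29-fold lower in the inputs with TMM (2236 ± 76.0 against 681 ± 54.0 CPM) but only 0.18 lower on the log2 scale with the library size. Hsp90ab1, a cytosolic chaperone, was higher in the inputs at 2034 ± 129 CPM against 670 ± 389, and the third wt total library (1117 CPM) lay far above the others (478 and 415). Eef1a1, Hyou1 and Zbtb20 were called lower in the inputs with TMM and higher with the library size, so no direction is given for them.

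**Figure D1:**
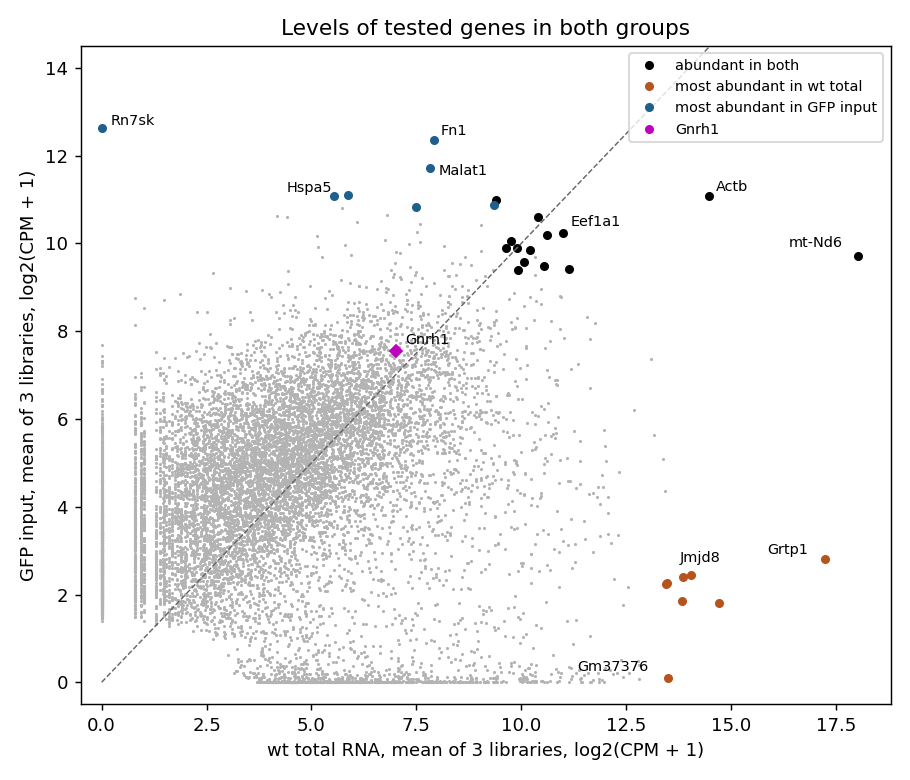
Mean level of each of the 11768 tested genes, as log2(CPM + 1) over 3 libraries, in wt total RNA (horizontal) and GFP input (vertical); the dashed line marks equal levels, black points are 14 genes abundant in both and coloured points the leading genes of one group. On this TMM scale Myh9, Canx and their like sit near the line. Grtp1 and Jmjd8 lie at the lower right and Rn7sk at the upper left with no count in wt total.

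Beyond these genes the leading rows of the sets were mostly not shared. Of the 500 rows with the highest mean CPM in wt total, 77 (15.4%) were among the 500 of the GFP inputs, given as a description with no test. Of the 100 highest 4 were shared (4%), and of the 2000 highest 737 were (36.9%). The 500 rows of wt total and of Mkrn3ox total had 422 rows in common (84.4%), and those of both kinds of input 477 (95.4%). Among the 77 shared rows were 5 of 13 mitochondrially encoded mRNAs, 4 of 26 housekeeping genes and 3 of 31 genes of hnRNP and SR splicing proteins. No cytosolic ribosomal protein gene was among them: 13 of 86 were in the list of the inputs and 1 in that of wt total.

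In wt total a few rows took up much of the library. Its top 100 rows held 53.9%, 49.0% and 49.8% of the counts, against 16.4%, 16.0% and 16.6% for the top 100 of the inputs. The row of mt-Nd6, a subunit of respiratory complex I, held 101765, 92679 and 105541 counts in wt total, 15.9%, 16.0% and 13.9% of each library. In the inputs it held 9073, 10231 and 15731 counts. Its level was 318-fold lower in the inputs (log2 difference −8.31, SE 0.23, adjusted p = 7.5e-11, edgeR).

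Grtp1, which encodes a TBC-domain protein (chromosome 8, 13176869 to 13200766, minus strand, GRCm38.p6), came next with 60958, 44820 and 70153 counts in wt total against 67, 97 and 86 in the inputs. That is 153982 ± 32008 CPM against 5.99 ± 0.65. The rows that followed were Gm20721, Actb, Jmjd8, Ulk4, Ubxn11, Gm37376, Tlcd1 and 1700037C18Rik. Apart from Actb they had 11275 to 27025 CPM in wt total and 0.0695 to 4.44 in the inputs. The Gm37376 row held 0, 3 and 0 counts in the inputs and 4590, 2847 and 5870 in wt total.

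The leading rows of the inputs were mostly genes of the matrix, the endoplasmic reticulum and the cytoskeleton. After the non-coding Rn7sk they were Fn1 (the matrix protein fibronectin), Malat1 (a nuclear long non-coding RNA), Hspa5 (the chaperone BiP of the endoplasmic reticulum), Flna (filamin A), Actb, Hsp90ab1, Sparc (a matrix glycoprotein) and Calr (calreticulin). Fn1 had 137, 337 and 249 CPM in wt total and 4998, 5393 and 5316 in the inputs, 21.7-fold higher (adjusted p = 2.7e-08, edgeR). Hspa5 had 67.0, 76.0 and 28.7 CPM against 2229, 2088 and 2249, 38.3-fold higher. Flna was 47.9-fold, Calr 10.1-fold and Sparc 2.86-fold higher in the inputs, each past the same test. No library of one group reached the range of the other for Fn1, Hspa5, Flna, Calr or Sparc. The same was so for 71.0% of all tested genes. These genes were named because they lead the inputs, and that choice favours a higher level there.

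Each of the 15 RNA classes took a share of the library that did not overlap between wt total and GFP input. Shares here are of all counts, with no scaling, and the exact permutation test gave p = 0.1 for each, the smallest possible, and 0.1 after adjustment over the 15. In wt total 7 classes had the larger share and in the inputs 8. In the second pair all 15 kept their direction with no overlap. Protein-coding mRNA other than ribosomal protein, histone and mitochondrial mRNA made up 71.7%, 73.0% and 74.3% of wt total and 94.3%, 94.4% and 94.6% of the inputs.

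Mitochondrially encoded RNA differed most in kind. Mitochondrial mRNA made up 16.1%, 16.3% and 14.2% of wt total and 0.624%, 0.574% and 0.616% of the inputs, 25.7-fold less on average, and in wt total mt-Nd6 was 98.2% of it. In the inputs the leading mitochondrial mRNA was mt-Co1, the catalytic subunit of cytochrome oxidase, at 38.5% of the class. Transcripts of mt-Co1 numbered 167, 225 and 202 counts in wt total and 16158, 19941 and 20881 in the inputs. Mitochondrial tRNA made up 0.374%, 0.391% and 0.350% of wt total, led by mt-Te, and 0.000777%, 0.000718% and 0.000842% of the inputs. The mitochondrial genome carries most of its genes on one strand, and mt-Nd6 and 8 of the 22 tRNAs on the other, the light strand. These 9 rows of the light strand, grouped after their values were seen, held 98.6%, 98.4% and 97.8% of the mitochondrial mRNA and tRNA counts in wt total and 21.0%, 21.0% and 28.3% in the inputs. Mitochondrial ribosomal RNA went the other way, with 0.0826% ± 0.0277 of wt total and 0.287% ± 0.0492 of the inputs.

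Rows of non-coding and unclassified genes were a larger part of wt total. Long non-coding RNA made up 7.65% ± 0.579 of it, spread over many rows (the leading one, Gm26631, was 5.39% of the class), against 1.12% ± 0.0784 of the inputs, where Malat1 alone was 51.4% of the class. Rows typed TEC, gene models still to be tested by experiment, made up 1.58% ± 0.181 against 0.0670% ± 0.00305. In wt total the Gm37376 row alone was 41.8% of that class. Rows without a gene type made up 0.975% ± 0.0494 against 0.134% ± 0.00107, miRNA rows 0.0921% ± 0.0117 against 0.00965% ± 0.00521, and pseudogenes 0.318% ± 0.0242 against 0.160% ± 0.00409. The miRNA share of wt total came mostly from the Gm55635 row, at 76.2% of the class.

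Other RNAs that normally lack a poly(A) tail, unlike the tRNA and miRNA rows above, had the larger share in the inputs. The class of miscellaneous RNA made up 1.08% ± 0.0658 of the inputs and 0.00496% ± 0.00143 of wt total. It consisted almost wholly (99.4%) of Rn7sk, the 7SK RNA that holds the elongation factor P-TEFb inactive (chromosome 9, 78175302 to 78175633, GRCm38.p6). Rn7sk had 0 counts in all 3 wt total libraries and 74362, 86140 and 103381 in the inputs, at least 2425-fold higher against a floor of 3 counts over the wt total group. The small cytoplasmic RNAs Rny1 and Rny3 also had 0 counts in wt total and 151 to 240 in each input.

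Replication-dependent histone mRNA made up 0.324% ± 0.0139 of the inputs and 0.00848% ± 0.00203 of wt total, 38.2-fold less. The leading histone row of wt total was H1f0, a linker histone that does not depend on replication, with 33, 35 and 44 counts. H4c14, H4c6, H1f1 and H1f3, each with 0 counts in wt total, had 1624 to 2701 counts in each input and were at least 56.6-fold higher. Ribosomal RNA, nearly all of it the Rn18s-rs5 row, made up 0.230%, 0.239% and 0.0434% of the inputs against 0.00277% to 0.00438% of wt total. The third input thus held far less of it than the other inputs. Spliceosomal and other snRNA made up 0.0274%, 0.1001% and 0.0190% of the inputs, where the second library stood apart through the row Gm25939, and 0.00573% ± 0.00146 of wt total. Mature snoRNA and scaRNA made up 0.0267% ± 0.00356 and 0.00500% ± 0.000836. Cytosolic ribosomal protein mRNA, which is polyadenylated, made up 1.52% ± 0.0314 of the inputs and 0.317% ± 0.0492 of wt total.

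**Figure D2:**
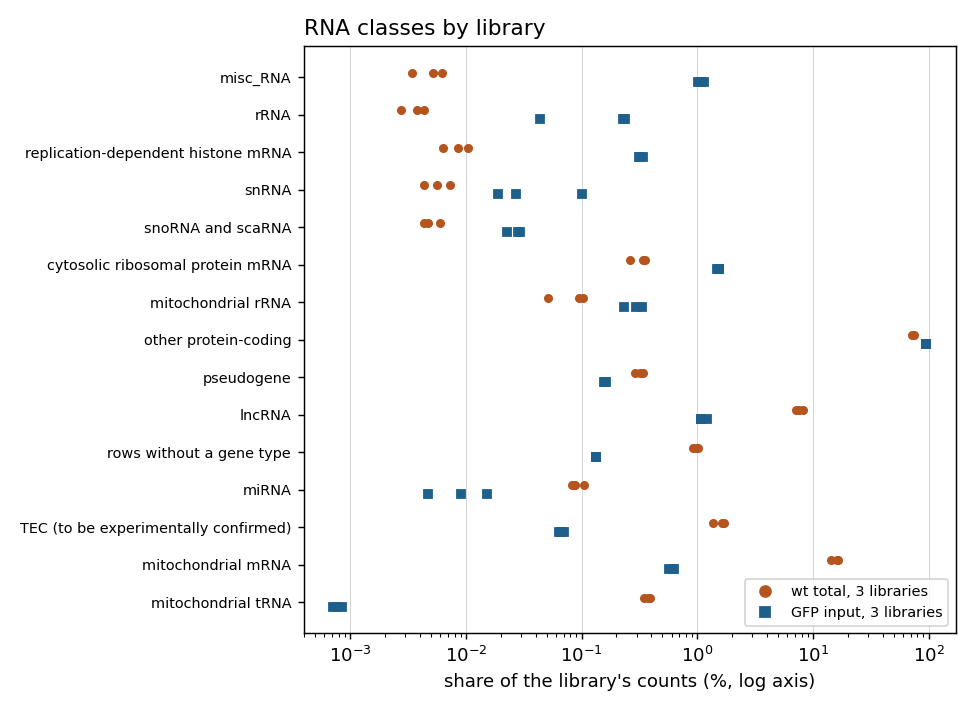
Share of each library's counts (percent, log axis) in 15 RNA classes, with 3 wt total libraries as circles and 3 GFP input libraries as squares, ordered by the ratio of the group means. No class overlaps between groups: miscellaneous RNA (Rn7sk) stands at 1.08% against 0.00496% at the top, and mitochondrial tRNA at 0.000779% against 0.371% at the bottom.

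Many leading rows of wt total belonged to genes that lie beside a gene on the opposite strand. The labels name no strand setting for the counting, so it cannot be told apart here whether such a row holds its own gene's reads, those of the opposite strand, or both. This holds for rows without a known neighbour too, and directions between wt total and the inputs are those of rows. Of the 100 leading rows of wt total, 76 could be placed with a strand in the RefSeq table of GRCm38.p6. For 52 of them (68.4%) a gene on the opposite strand, overlapping or within 5 kb, had the higher level in the GFP inputs. It held for 20.7% of all placed tested genes. Of the 100 rows 57 were under 10 CPM in the inputs, and a row that is low there has a more abundant neighbour more easily, so a count among rows equally low in the inputs is given further on. The end of Grtp1 lies 1531 bases from the end of Lamp1, a lysosomal membrane protein with 621 CPM in the inputs. Jmjd8 (16836 CPM in wt total, 4.44 in the inputs) overlaps Stub1, a ubiquitin ligase (91.5 CPM in the inputs). Ulk4 (14711 and 4.25 CPM) lies 3947 bases from the end of Ctnnb1, β-catenin (355 CPM in the inputs).

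The same relation ran through the genome. For 1304 tested genes that overlap an opposite-strand gene on the side of their 3′ ends, the wt total level had a Spearman rho of 0.04 with the gene's own level in the inputs and of 0.51 with its partner's level. The 3′ ends of a pair in this set could lie far apart, for example 378278 bases for Ctnna2 and Lrrtm1. For 4297 genes with no opposite-strand gene within 5 kb, the rho with the own level in the inputs was 0.58. These are descriptions across genes, with no p-value, and a filter on low counts acted on the first set through either group. The next count does not use that filter. Of 300 placed rows under 1 CPM in the inputs whose 3′ partner had at least 20 CPM there, 115 (38.3%) had at least 20 CPM in wt total. Of 7244 rows equally low in the inputs but with no opposite-strand gene within 5 kb, 41 (0.566%) did. Of 625 rows whose 3′ partner was itself under 1 CPM, 9 (1.44%) did. In the second pair the shares were 37.5%, 0.759% and 1.61%. The split by 3′ ends was made after the data had been seen.

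**Figure D3:**
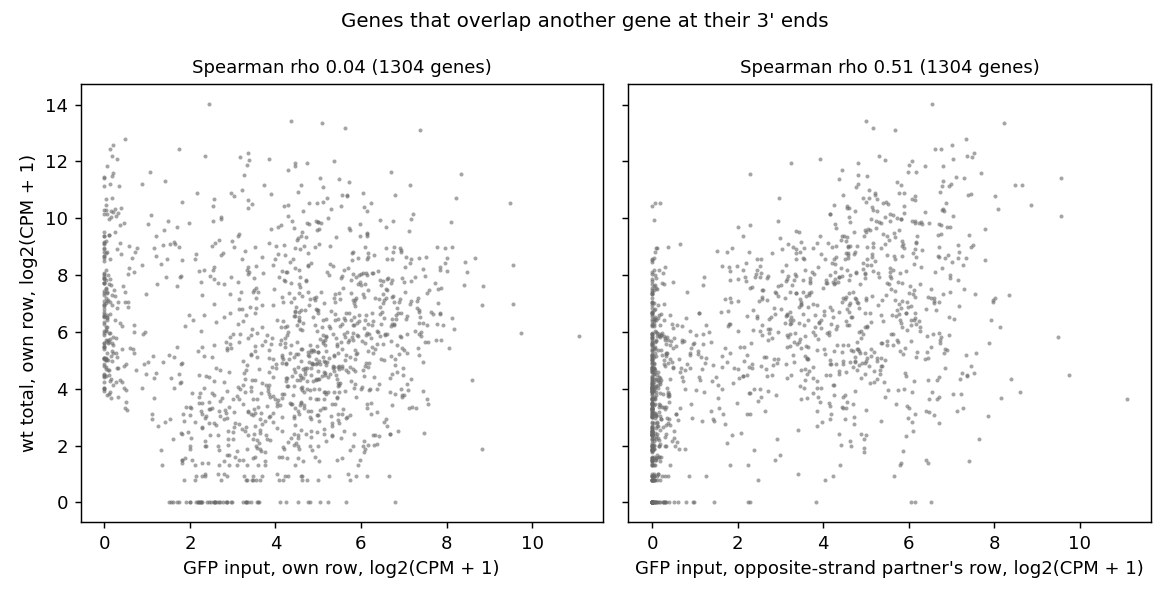
Level in wt total (vertical) of 1304 genes that overlap an opposite-strand gene on the side of their 3′ ends, which may lie far apart. The horizontal axis is the gene's own level in the GFP inputs (left) or its partner's level there (right). All are log2(CPM + 1) of group means, 1 point a gene. The left panel shows no slope (Spearman rho 0.04), with a column of points near 0 in the inputs that reaches 4 to 12 in wt total, and the right panel a rise (rho 0.51).

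The row of Gnrh1, the hallmark of the line, held counts in both sets. Gnrh1 (chromosome 14, 67745181 to 67749440, GRCm38.p6) had 42, 42 and 65 counts in wt total and 2357, 2454 and 2878 in the inputs. That corresponds to 128, 114 and 143 CPM and to 195, 171 and 190 CPM, so the input libraries all lay above the wt total ones. In 71.0% of all tested genes the groups did not overlap. The log2 difference of 0.52 (SE 0.22) did not pass edgeR's quasi-likelihood test with TMM (adjusted p = 0.053), and was 2.07 with the library size, where it passed, close to the median of 2.23 over all genes on that scale.

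Around Gnrh1, 13 of 21 GnRH neuron genes could be tested. Otx2 (62.6 CPM in wt total and 91.0 in the inputs), Six6 (25.1 and 24.6) and Pou2f1, or Oct-1 (26.7 and 43.9), were measured in both and did not pass the test. Dlx5, Dlx6, Meis1 and Isl1, homeodomain factors of forebrain and hypothalamic neurons, were lower in the inputs under both scalings. Dlx6 had 380, 398 and 462 counts in wt total and 342, 367 and 381 in the inputs in spite of their depth, 41.2-fold lower in CPM (1085 ± 69.7 against 26.3 ± 1.75, adjusted p = 4.6e-10, edgeR). Meis1 had 581 ± 135 CPM against 59.4 ± 2.72, Dlx5 528 ± 116 against 62.8 ± 11.9 and Isl1 573 ± 21.2 against 99.8 ± 10.9. Gnrh1, Dlx5 and Dlx6 were not among the rows placed with a strand, so opposite-strand neighbours were not examined for them. Gata4, with 8.24 CPM in wt total and 26.5 in the inputs, was the 1 member called higher in the inputs. In the list as a whole 6 of 13 were called lower and 1 higher, where 24.7% of all tested genes were lower and 38.6% higher. With the library size 4 were lower and 9 higher, beside 15.5% and 69.6% of all genes. In the second pair, with TMM, 5 were lower and 4 higher, beside 25.5% and 40.5%. More members were lower than higher with TMM in both pairs, but not with the library size. The share of lower members was above that of all tested genes each time. Its median difference was 0.01, against 0.69 over all genes. Tshz1 was among the 6, and its sign turned with the library size. Dlx2, Gnrhr and Nr5a1 had 0 counts in all 6 libraries.

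Only some rows of the secretory genes of a peptide neuron held counts. Pam, which amidates the end of GnRH, had 558, 698 and 1035 counts in wt total and 5046, 6194 and 6985 in the inputs, 1958 and 436 CPM on average. Cpe, a carboxypeptidase that trims prohormones, had 34.3 CPM in wt total and 161 in the inputs, and the convertase Pcsk2 had 0, 0 and 4 counts in wt total and 281, 294 and 333 in the inputs. Rab3a, a GTPase of secretory vesicles, had 307, 240 and 351 counts in wt total and 97, 110 and 88 in the inputs, 787 ± 142 against 7.16 ± 1.19 CPM. The end of Mpv17l2 on the opposite strand lies 41 bases from that of Rab3a. The convertase Pcsk1, the granins Chga, Scg2 and Scg3, and Qpct, which cyclises the first residue of GnRH, had 0 counts in all 6 libraries. Of the 18 genes in this list 9 were tested, 5 of them higher and 3 lower in the inputs, beside 38.6% and 24.7% of all tested genes.

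The labels call the cells a neuronal culture, and the marker genes for neurons were divided. Map1b, Dpysl3, Ncam1 and Map2, proteins of the neuronal cytoskeleton and surface, held counts in both. Map1b had 908 ± 102 CPM in wt total and 468 ± 25.6 in the inputs, and its sign turned with the library size. Ncam1 had 297 CPM in wt total and 275 in the inputs, Dpysl3 368 and 268, and Map2 54.8 and 39.4. None of these passed the test with TMM. The neurofilament genes Nefl and Nefm, Stmn3, Gap43, Dcx and Elavl4 had 0 counts in all 6 libraries. Stmn2 had 2 counts and Snap25 1, both in the third wt total library. Tubb3, the neuronal β-tubulin, had 0 counts in wt total and 18, 15 and 21 in the inputs, where Rbfox3 had 0, 4 and 0. In all, 12 of 25 neuronal genes had no count in wt total and 8 had none in the inputs. Of 13 tested, 3 were higher and 2 lower in the inputs with TMM, beside 38.6% and 24.7% of all tested genes. With the library size 11 were higher and 1 lower, beside 69.6% and 15.5%. In the second pair 3 of 14 were higher and 6 lower, beside 40.5% and 25.5%. The list's median was 0.49 (0.23 at the bound of genes with 0 counts) and −0.29 in the second pair.

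A count of 0 in these tables is no proof of a silent gene. The rows of mt-Co2, mt-Co3 and mt-Atp6, genes that respiring cells transcribe strongly, held 0 counts in wt total and 0 to 5 in each input. A count of 0 in all 3 input libraries allows up to 0.0721 CPM by a floor of 3 counts, and in all 3 wt total libraries up to 2.61 CPM, for counting error alone.

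**Figure D4:**
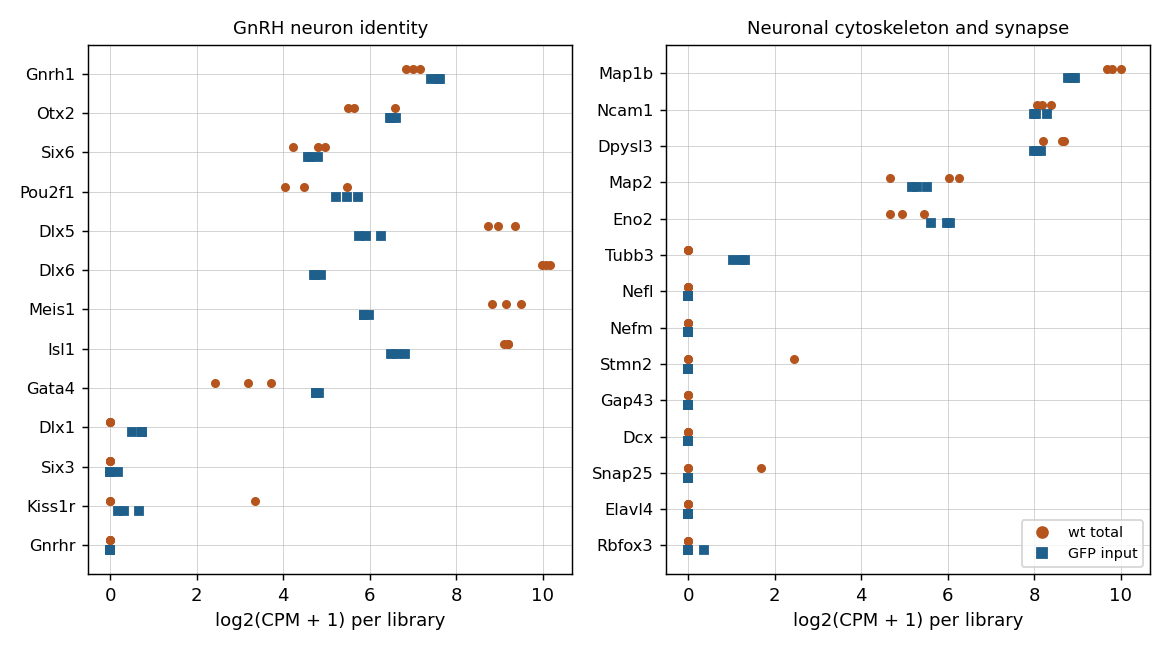
Levels per library, as log2(CPM + 1), of 13 GnRH neuron genes (left) and 14 neuronal genes (right), with wt total as circles and GFP input as squares. On this TMM scale Gnrh1, Otx2 and Six6 stand at like levels in both groups and Dlx5, Dlx6, Meis1 and Isl1 higher in wt total. With the library size Gnrh1 was higher in the inputs. Most neuronal genes from Nefl downward stand at 0.

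Many markers of other cell types were at 0, but not all of the others were low. Of 13 astrocyte and oligodendrocyte genes, 8 had no count in wt total and 8 none in the inputs. Their summed level was 101 to 143 CPM in wt total and 19.97 to 22.5 in the inputs, in wt total mostly from Cnp, which overlaps Dnajc7 on the opposite strand. Of 18 fibroblast, endothelial and immune genes, 12 had no count in wt total and 6 none in the inputs. Their sum was 1144 to 1428 CPM and 526 to 593. Of these genes 1 was among the 500 leading rows of wt total and 1 among those of the inputs, with 0 in both lists. The genes named next do not make up the whole of the sum in the inputs. Col3a1, Lum, Pecam1, Ptprc and Cd3e, defining genes of those types, were at 0 in all 6 libraries, while Col1a2 had 675 CPM in wt total and 91.0 in the inputs, Csf1r 414 and 5.63, and Kdr 4.52 and 129. Whether these levels play a part in the differences between the groups was not tested.

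Over all 11768 tested genes, 7444 (63.3%) were called at an adjusted p under 0.05 (edgeR, Benjamini-Hochberg). With TMM 4542 were higher in the inputs (38.6%) and 2902 lower (24.7%), so 61.0% of calls were higher. With the library size 10011 were called (85.1%), of which 8186 were higher (69.6% of tested genes) and 1825 lower (15.5%), so 81.8% of calls were higher. Of the tested genes 4326 were called higher and 1825 lower under TMM, DESeq2 size factors and library size alike, and 193 were called in opposite directions by TMM and library size. In 8356 genes (71.0%) the groups did not overlap. After the median difference was taken out, 31.7% of genes lay within 2-fold of each other and 31.1% differed by 8-fold or more. Counts in all 3 libraries of wt total and in none of the inputs were seen for 585 rows, the reverse for 3209. The fitted difference of a gene with 0 counts in a group is no bound. With such genes set to their bound, from the floor of 3 counts over the group, the median over all tested genes was 0.55 in place of 0.69. For the lists that follow, the median with such genes at their bound is given beside the fitted one where it differs. The share called higher in the inputs with TMM, 38.6%, and lower, 24.7%, is the background for every count of list members that follows.

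The largest differences called alike in the second pair fell into plain kinds. Higher in the inputs were Rn7sk, the histone genes above, Col6a1 (a collagen VI chain), Soga1, Lzts2, Tmem86a and Dctn1 (a dynactin subunit), each with 0 counts in wt total. The last 5 had 1141 to 2358 counts in each input. Higher in wt total were Pdzd9, Mettl7b, Fam166a, St3gal6, Slc39a5, Lhb, Nkx6-2, Mfap4 and 2 rows without a symbol, all with 0 counts in the inputs. Their means were 1194 to 3717 CPM in wt total, at least 16563-fold higher against the inputs' floor. Lhb encodes a subunit of luteinising hormone, a pituitary product, and had 565, 502 and 625 counts. Fam166a overlaps Tubb4b, St3gal6 overlaps Dcbld2 and Nkx6-2 overlaps Inpp5a on the opposite strand, with 3′ ends 123, 3 and 276 bases apart, and these partners had 136, 157 and 34.6 CPM in the inputs.

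Genes of the endoplasmic reticulum and the stress response stood higher in the inputs. Of 14 tested genes of that list 12 were called higher and 1 lower, beside 38.6% and 24.7% of all tested genes, with a median difference of 3.08 (2.97 at the bound) against 0.69. In the second pair 9 were higher and 1 lower, beside 40.5% and 25.5% of 11793 tested genes (7781 called, 66.0%). The stress-induced phosphatase subunit Ppp1r15a had 0, 1 and 0 counts in wt total and 1151, 1461 and 1562 in the inputs. Ppp1r15a overlaps Tulp2 on the opposite strand, which had 18.6 CPM in wt total and 0.29 in the inputs. The pseudokinase Trib3 had 0, 0 and 1 counts against 424, 699 and 660. Xbp1, a transcription factor of the unfolded protein response, had 0 counts in wt total and 273, 394 and 423 in the inputs, at least 9.96-fold higher. The list's summed level was 569 to 814 CPM in wt total and 5838 to 6382 in the inputs.

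Most chaperones of the cytosol were called higher in the inputs. Of 11 tested heat shock genes 8 were higher (38.6% of all tested genes were), among them Hspa4 (11.5 against 217 CPM), Hspa8 (26.6 against 218) and Dnajb1 (6.67 against 46.2), and 1 was lower, Dnaja1, with 698 ± 152 CPM in wt total and 59.6 ± 0.346 in the inputs. Of the 8 subunits of the chaperonin that folds actin and tubulin, 7 were higher and 1 lower. In the second pair the counts were again 8 and 1 of 11 and 7 and 1 of 8. Cct7 had 13.5 CPM in wt total and 199 in the inputs and Cct3 32.4 and 136.

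Most genes of growth and division that passed the test were higher in the inputs as well. Of 23 cell division genes 16 were higher and 1 lower, with a median of 1.31. Mcm2, of the replicative helicase, had 3, 5 and 4 counts in wt total and 4185, 4712 and 5438 in the inputs, and the replication clamp Pcna 1, 6 and 1 against 2322, 2885 and 3070. Of 37 proteasome genes 23 were higher and 2 lower (median 1.55, 1.38 at the bound), for example Psmc3 with 12.8 and 217 CPM. Of 82 cytosolic ribosomal protein genes 50 were higher and 11 lower (median 1.77, 1.72 at the bound), and in the second pair 43 and 20 of 81. Rps18 had 1, 0 and 0 counts in wt total and 4232, 5270 and 5810 in the inputs, whereas Rpl24 had 5, 2 and 13 in wt total and 0, 2 and 1 in the inputs.

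Metabolic genes split within their lists. Of 15 glycolysis genes 11 were higher and 3 lower: Pkm, the last enzyme of the pathway, had 66.6 ± 42.8 CPM in wt total and 1445 ± 79.3 in the inputs, while Pfkp, a phosphofructokinase, had 646 ± 232 and 25.2 ± 2.58. Pfkp overlaps Pitrm1 on the opposite strand. Of 79 nuclear-encoded respiratory genes 38 were higher and 12 lower (median 1.06, 1.00 at the bound). Of 76 mitochondrial ribosomal protein genes 28 were higher and 7 lower (median 1.25). The share of higher genes was close to the 38.6% of all tested genes. That of lower genes was below the 24.7% of all, and the median above the 0.69 of all. Cholesterol synthesis was divided, with 9 of 21 genes higher and 6 lower in the inputs, and the direction of this list's median turned in the second pair (0.61, or 0.15 at the bound, and −0.53). Fdft1, squalene synthase, had 1087 ± 280 CPM in wt total and 11.3 ± 0.56 in the inputs.

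Splicing factors and hosts of snoRNAs were among the lists with more genes lower than higher in the inputs with TMM, as were the GnRH neuron genes and the nuclear RNAs that follow. Of 30 genes of hnRNP and SR proteins 14 were lower in the inputs and 8 higher (median −0.51), and with the library size 8 were lower and 19 higher (median 1.03). Hnrnpu had 1150, 1060 and 1232 counts in wt total and 4371, 4354 and 4532 in the inputs, 3032 ± 416 against 321 ± 35.5 CPM, and Srsf2 1039 ± 204 against 86.8 ± 4.36. Of 13 snoRNA host transcripts 8 were lower and 2 higher (median −1.86), and with the library size 2 were lower and 5 higher (median −0.34). Snhg14, the host of imprinted snoRNA clusters, had 116, 93 and 71 counts in wt total and 2, 0 and 0 in the inputs. It overlaps Ube3a on the opposite strand, which had 123.4 CPM in the inputs.

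Nuclear long non-coding RNAs went both ways. Of 8 tested, 3 were higher in the inputs and 4 lower. Malat1 (224 ± 40.4 CPM in wt total and 3392 ± 308 in the inputs), Neat1 (32.7 and 120) and Norad (84.2 and 190) were higher. Xist, the RNA of the inactive X chromosome, had 139, 159 and 159 counts in wt total and 479, 467 and 434 in the inputs, 402 ± 44.7 against 33.6 ± 5.62 CPM. Kcnq1ot1 (84.4 and 8.07 CPM) and Ftx (70.3 and 6.49) were also lower, and Firre was lower only with TMM.

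The interferon, immediate early and p53 lists had more genes called higher than lower in the inputs, as had all tested genes. Their summed levels there were below that of the stress response list, but sums over different genes do not rank the responses. Of 19 interferon response genes 9 were higher in the inputs and 2 lower (median 1.70, 1.16 at the bound), with a summed level of 353 to 469 CPM in wt total and 383 to 416 in the inputs. Oasl2 and Mx2 had 0 counts in wt total and 133 to 314 in each input. Irf7 had 95, 61 and 141 counts in wt total and 165, 197 and 252 in the inputs, 255 ± 78.4 against 14.7 ± 1.70 CPM. Of 16 immediate early genes 7 were higher and 1, Junb, lower, with a summed level of 825 to 972 CPM in wt total and 1247 to 1352 in the inputs. Of 11 p53 targets 6 were higher and 2 lower, with 355 to 418 CPM and 620 to 675. Of 267 Zfp zinc-finger genes 87 were higher and 35 lower, both below the 38.6% and 24.7% of all tested genes (median 1.20, 0.69 at the bound).

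Makorins and poly(A)-binding proteins are the proteins at the centre of the series. Of 11 such genes 3 had no count in wt total and 1 had none in the inputs. Mkrn3 had 0 counts in wt total and 60, 52 and 36 in the inputs, at least 1.40-fold higher, and did not pass the test (adjusted p = 0.058, edgeR). Mkrn2 had 104, 79 and 143 counts in wt total and 391, 515 and 732 in the inputs, 282 ± 58.6 against 38.8 ± 8.38 CPM, and was called lower in the inputs. Mkrn1 had 0, 2 and 13 counts and 384, 477 and 445. Pabpc1, the main cytoplasmic poly(A)-binding protein, had 113 ± 27.9 and 348 ± 34.8 CPM and Pabpc4 4.24 ± 3.68 and 59.6 ± 2.20, both higher in the inputs.

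The differences recurred in libraries of the same experiments that had no part in the first comparison. Of 4540 genes higher in the GFP inputs and tested in both pairs, 3643 (80.2%) were called higher in the GFP-Mkrn3 inputs over Mkrn3ox total, and they made up 76.3% of the 4774 higher there. Of 2654 lower genes 2274 (85.7%) were called lower again, 80.9% of the 2812 lower there. The opposite call was made for 31 and 33 genes. Over 4576 genes with a mean of at least 5 counts in each of the 4 groups, the log2 differences of the pairs had a Pearson r of 0.95 and a Spearman rho of 0.91, across genes and with the experiment and depth shared. Over all 11405 genes tested in both they were 0.82 and 0.80. In an edgeR fit of all 12 libraries, 448 of 12644 genes (3.54%) differed between the pairs in this difference.

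**Figure D5:**
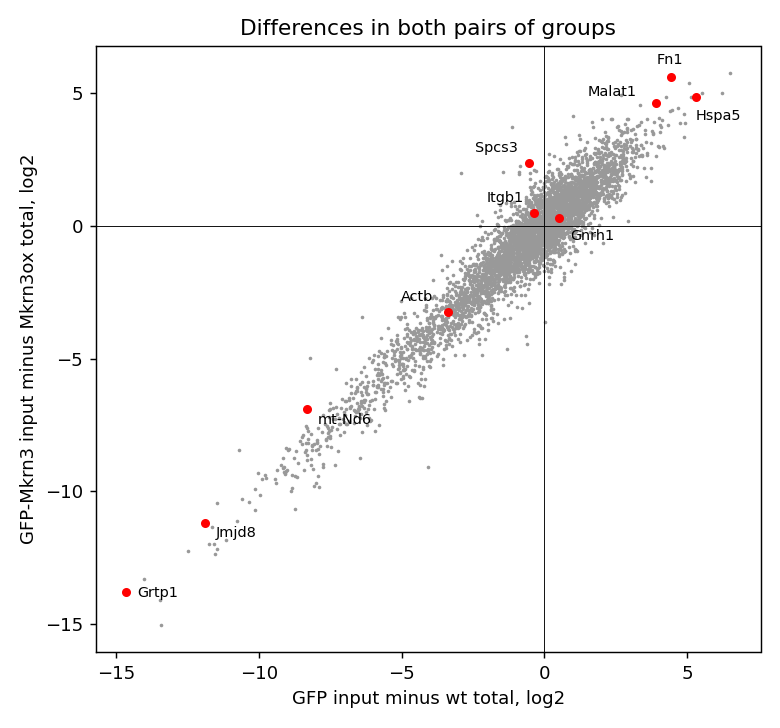
Log2 difference of inputs from total RNA in the first pair (GFP input minus wt total, horizontal) and in the second pair (GFP-Mkrn3 input minus Mkrn3ox total, vertical) for 4576 genes with a mean of at least 5 counts in every group. Points follow the diagonal from Grtp1 at the lower left to Hspa5 at the upper right, and Spcs3 stands above it (−0.53 and 2.35).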

How the data were processed

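RNA of 12 libraries (wt total, GFP input and, as a second pair, Mkrn3ox total and GFP-Mkrn3 input, 3 each) was used. The deposited values are raw counts per gene in 57010 rows, which the authors made with cutadapt, STAR and HTSeq on mm10, per the submitters' processing notes. Tool versions, the annotation, the strand setting and whether molecular identifiers were collapsed: not given in the sources used here. Gene names and types were those in the deposited tables, and 1606 rows had none. Positions and strands came from RefSeq (GRCm38.p6), with 19953 rows placed with a strand.

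Each pair was fitted alone with edgeR 4.0.16 in R 4.3.3 (TMM, filterByExpr by group, quasi-likelihood F test, two-sided, Benjamini-Hochberg over all tested genes, call at an adjusted p under 0.05). Shares and detected rows were compared by exact permutation. Other scalings and filters, DESeq2 1.42.0, limma 3.58.1 (voom), thinning, the replicate number as a block and leaving out libraries were alternatives. On simulated data of the first comparison (11970 genes) the test recovered 3.08% of 1.5-fold, 38.5% of 2-fold and 92.3% of 4-fold changes, with 4 false calls. The simulation gave both groups the same mean except for a few changed genes, and the same dispersion to all genes. The real groups differed in most genes and in their spread, so these figures do not measure the error of the calls above. Depth was 577589 to 759271 counts in wt total and 6947556 to 9022961 in GFP input. Floors (3 counts over a group) cover counting error only.

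Named genes were the 15 most abundant in both groups, the 10 most abundant of each, the 10 largest differences in each direction called alike in the second pair (mean of at least 20 counts, no Gm or Rik symbols), Gnrh1, makorins and Pabpc genes, and up to 4 called members with the largest difference of each of 29 lists. Of the 161 genes so selected, 3 are not reported here. Other members named were singled out after their values were seen. The libraries, lists and rules were chosen with earlier results of these data known.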

Additional observations from a re-analysis of the deposited data

Results flagged for a closer look

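For 14 named genes the difference of inputs from total RNA was not the same in the first pair (GFP input minus wt total) and in the second (GFP-Mkrn3 input minus Mkrn3ox total), by an interaction term of edgeR with an adjusted p under 0.05 over 12644 genes. The values that follow are the first difference minus the second, on the log2 scale.

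Xist had the largest, −14.58, with 402 CPM in wt total and 0 in each Mkrn3ox total library, beside 33.6 and 38.7 CPM in the inputs, so that the fitted value is no bound. Plagl1, an imprinted zinc-finger gene, followed at −5.69 (105 and 1.94 CPM in wt and Mkrn3ox total). Among the genes abundant in both sets the values were −2.90 for Spcs3 (963 and 138 CPM in wt and Mkrn3ox total, 670 and 702 in the GFP and GFP-Mkrn3 inputs), −1.97 for Zbtb20, −1.72 for Cdh11, −1.41 for mt-Nd6 and −0.87 for Itgb1. Fn1 stood at −1.18, Dlx6 at −1.08 and Grtp1 at −0.88.

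The difference was larger in the first pair for Ddit4 (a fitted 9.87 that is no bound, with 0 counts in wt total and 18.6 CPM in Mkrn3ox total), Cct4 (4.87), Igf2r (1.15) and Gnas (1.08 by the fit). The cause of these 14 differences was not tested.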

How the results depend on the processing

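Counts of called genes moved by over 1.5 times in few settings. With the library size as scaling, 8186 genes were higher and 1825 lower in the GFP inputs, and 8214 and 1906 in the second pair, beside 4542, 2902, 4776 and 3005 with TMM. With a mean of at least 20 CPM fewer genes were tested, and 2854 and 3027 were higher. With no filter 4517 were lower in the second pair. Leaving out a library gave 3119 to 4200 higher and 2341 to 3058 lower genes in the first pair. Detected rows at equal depth differed by 2618 on average when 3 counts were asked for. Shared rows were 4% of the top 100 and 36.9% of the top 2000. The 15 RNA classes did not overlap in any alternative. CPM per kb of exon length was not run, as no exon lengths were used here.

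Replicate numbers do not pair the samples: deviations of libraries with the same number correlated at −0.02 to 0.01. With the replicate block 3430 genes were higher and 2386 lower in the first pair and 3412 and 2396 in the second.

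Of the 158 named genes 133 kept direction and call in every alternative run for them. With the library size the sign turned for Eef1a1 (0.76), Hyou1 (1.04), Zbtb20 (0.47), Map1b (0.58) and mt-Nd5 (0.076), by the change of scale itself.

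Depth limits wt total: the 1116 tested genes with no count there have fitted differences that are no bounds.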
